A study of Mus musculus with 20 samples.

Results

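The effect of antibiotics on the liver was measured in mice that had also been given anti-CD40. Group membership was read from the sample titles: 5 mice given anti-CD40 with antibiotics (ABX, mice 11 to 15) were compared with 5 mice given anti-CD40 and no ABX (mice 16 to 20). These 10 libraries were 10 of the 20 in the series, and each came from a different animal. The other 10 came from control mice without anti-CD40, 5 with ABX and 5 without, and were used to ask whether the ABX effect differed without anti-CD40. They also entered the common fit, and so its scaling, its filter on low counts and its estimate of spread. RNA came from snap-frozen liver and was sequenced as paired reads. Strain, age, sex, antibody dose and schedule, the antibody's mode of action on CD40 and the antibiotics are not given in the sources used.

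CD40 is a receptor of the tumour necrosis factor receptor family on B cells, dendritic cells and macrophages, and its ligand is carried mainly by activated T cells. Antibodies that activate CD40 are known to stimulate myeloid cells and to inflame the liver. The liver receives blood from the gut through the portal vein, so that bacterial products reach its resident macrophages (Kupffer cells) and hepatocytes. Interferon-inducible GTPases, acute phase proteins and the enzymes of drug and bile acid metabolism are gene groups known to respond when the liver is inflamed.

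Each of the 10 libraries held 5053014 to 6211642 counted fragments. Mouse alignments had been counted over human exon coordinates, and a mouse gene was therefore covered only where such an interval fell on its exons: a total of 372 bases, or 7.6% of the exon length, for the median of the 2200 genes tested. All levels below are CPM (counts scaled to a common library size) computed from the counts attributed to single mouse genes, with scaling by the trimmed mean of M-values, and describe those stretches. A gene was called when its adjusted p was under 0.05 in edgeR's quasi-likelihood test across all 2200 genes. The labelled tissue carried its defining transcript: albumin took 7.91% to 9.82% of all counts in the ABX mice and 5.92% to 7.49% in the mice without ABX. Libraries stood apart in 3 ways. ABX mice 11 to 15 and mouse 16 without ABX lay in plate column 4, and mice 17 to 20 lay in column 5. Mice 14, 15, 19 and 20, which are 2 of each group, had low levels of endothelial and collagen genes. Mouse 18, without ABX, had the highest level of its group for several genes of inflammation.

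With anti-CD40, livers of ABX mice held more transcript of interferon-inducible GTPases, of the kinase gene Ripk2, of the bile acid enzyme gene Akr1d1 and of many cytochrome P450 and transporter genes. They held less transcript of the polyamine enzymes Smox and Sat1, of the neutrophil gene Cd177, of the acute phase genes A2m and Serpina3i, of the clock gene Per1 and of the P450 gene Cyp3a11. Of 2200 genes tested, 350 were called, which is 15.9%. Of these, 191 (8.68% of those tested) were higher and 159 (7.23%) were lower with ABX. With scaling by library totals the balance turned, with 123 higher and 150 lower. A fit of the 10 anti-CD40 libraries alone called 289 of 2073 genes. The ranges of the groups did not overlap for 221 of the 2200 genes (10%), among them 182 of the 350 called. The changes were mostly moderate, with a median absolute log2 fold change of 0.55 among the called genes. Only 71 genes (3.23%) were both called and changed at least 2-fold, 21 upward and 50 downward. The counts of called genes in each list below are to be read beside the shares of 15.9%, 8.68% and 7.23%. A short list with a count near them shows no result of its own.

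**Figure D1:**
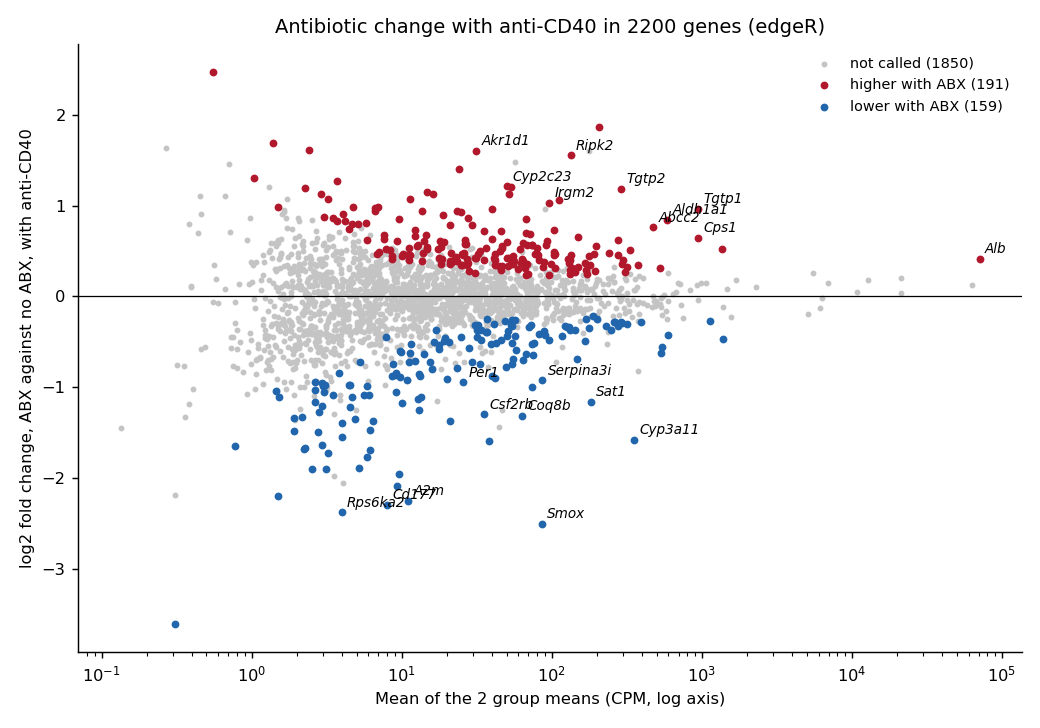
Each point is 1 of 2200 genes, with its mean level in the 10 anti-CD40 libraries (CPM, log axis) against the log2 fold change of ABX over no ABX. Red points are the 191 called higher and blue points the 159 called lower with ABX, and Smox, at -2.50, is the lowest of the labelled genes.

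The plate column was almost the same division of mice as the treatment. With plate column as a term in the model, 5 genes were called in place of 350 (Akr1d1, Coq8b, Cyp3a11, Gm45774 and Tgtp2, of which 4 were among the 350). Column 5 held only mice 17 to 20, so each anti-CD40 fold change given with that term rests on mouse 16 against the 5 ABX mice. The fold change kept its sign for 349 of the 350. These genes were called with mouse 16 among the mice without ABX, so their selection favoured that agreement. Mouse 16, the only mouse without ABX in column 4, was also compared directly. Of 294 genes called when mouse 16 was left out, 292 were among the 2200. For these, mouse 16 differed from the mean of the ABX mice in the direction of the change in 287 (98.3%), at any distance. It lay beyond all 5 ABX mice in 240 (82.2%). Both shares describe mouse 16 alone, and genes of the same library are not independent. They therefore cannot tell plate column from ABX. Leaving out mouse 14 gave 225 calls, leaving out mouse 18 gave 230, and leaving out mice 14, 15, 19 and 20 together gave 170, of which 149 were among the 350. Of the 62 called genes that were named by rule or picked, 19 were not called in that comparison of 3 with 3 mice: Alb, Bhlhe40, Chic1, Cyp2c29, Cyp2c69, Ehhadh, Fas, Fkbp5, Foxo1, Il1r1, Keap1, Pcx, Per1, Rcor2, Slc22a27, Slc22a28, Slc22a30, Susd4 and Uroc1. Ces1e, Abcc6, Gstp2 and Slc25a15, given below as further called members of lists, are not among the 62, and their calls with mice left out are not given.

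Interferon-inducible GTPases and their partners had the highest median change of the gene lists. These proteins bind to the membranes of vacuoles that hold intracellular microbes, and their genes are transcribed after interferon signals. Of 59 genes on the list of interferon-inducible GTPases and interferon response, 5 were tested, and 3 rose with ABX while 2 were not called. The median log2 fold change of the 5 was 0.96, against -0.01 over all genes tested. The promoters of the 3 genes that rose are given by RefSeq (build GRCm38.p6, 250 bases before to 50 bases after the start), and so is that of Gm12185, a neighbour of the Tgtp genes on chromosome 11 that was picked after its values were seen. They are shown because the 4 genes rose together and their promoters hold the same pair of motif letters, set in capitals: a gamma-activated site, searched as TTCNNNGAA, followed by an interferon-stimulated response element, searched as GAAANNGAAA, each on both strands. The windows are chr11:49064163-49064462 (minus strand) for Tgtp2, chr11:48992197-48992496 (minus strand) for Tgtp1, chr11:58214727-58215026 (plus strand) for Irgm2 and chr11:48927133-48927432 (minus strand) for Gm12185.
Tgtp2: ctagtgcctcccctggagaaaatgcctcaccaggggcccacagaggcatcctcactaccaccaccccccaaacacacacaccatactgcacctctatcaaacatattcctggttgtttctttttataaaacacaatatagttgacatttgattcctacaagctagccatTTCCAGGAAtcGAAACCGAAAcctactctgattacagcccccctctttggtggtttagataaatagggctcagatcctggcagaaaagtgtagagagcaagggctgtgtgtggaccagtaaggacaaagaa
Tgtp1: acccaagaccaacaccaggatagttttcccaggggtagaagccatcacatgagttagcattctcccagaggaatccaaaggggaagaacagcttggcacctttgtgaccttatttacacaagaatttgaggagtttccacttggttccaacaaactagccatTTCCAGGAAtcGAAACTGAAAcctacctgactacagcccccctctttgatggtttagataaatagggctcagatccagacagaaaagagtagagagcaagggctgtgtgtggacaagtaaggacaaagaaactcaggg
Irgm2: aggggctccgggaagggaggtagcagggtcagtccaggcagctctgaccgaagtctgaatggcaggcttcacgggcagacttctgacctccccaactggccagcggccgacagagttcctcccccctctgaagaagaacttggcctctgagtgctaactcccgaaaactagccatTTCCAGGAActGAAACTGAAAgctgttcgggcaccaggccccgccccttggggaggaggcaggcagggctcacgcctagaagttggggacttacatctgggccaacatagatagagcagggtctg
Gm12185: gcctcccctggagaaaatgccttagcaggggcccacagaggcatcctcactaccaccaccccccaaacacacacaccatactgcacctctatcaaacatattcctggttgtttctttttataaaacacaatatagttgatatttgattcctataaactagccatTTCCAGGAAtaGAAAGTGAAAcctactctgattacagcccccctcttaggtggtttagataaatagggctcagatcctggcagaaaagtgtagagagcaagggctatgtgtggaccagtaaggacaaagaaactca

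The first motif began 81 bases before the start in Tgtp2, 88 in Tgtp1, 75 in Irgm2 and 86 in Gm12185, and the second began 11 bases further on in each. Among 32851 RefSeq promoter windows of the same length, 8.3% held the first motif, 3.44% the second, and 0.131% held both with starts at most 20 bases apart. Of 1636 tested genes with an entry, 8 (0.489%) had such a pair. Besides the 4 shown, these were Ncf1, which fell (log2 fold change -0.63), and Parp11, Irf2 and Ifitm3, which were not called (0.41, 0.17 and -0.02). F830016B08Rik and Ripk2 have no entry. The 4 genes were chosen because they rose, so these shares are no test of the motif pair. The windows of Tgtp2 and Gm12185 are alike over most of their length, and Tgtp1 is a near copy of Tgtp2, so the 4 promoters are not independent. A match of letters is a description of the sequence, and factor binding was not measured.

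Tgtp2, a T-cell-specific guanine nucleotide triphosphate-binding protein gene, was at 541, 401, 342, 379 and 361 CPM in ABX mice 11 to 15. Without ABX it was at 177, 175, 173, 182 and 185 CPM in mice 16 to 20. The groups did not overlap, and mouse 11 was the highest. The log2 fold change was 1.18 ± 0.11 (SE), adjusted p = 1.7e-07. Its near copy Tgtp1 was at 1505, 1187, 1048, 1276 and 1209.8 CPM with ABX and at 564, 606, 608, 694 and 722 CPM without, again with no overlap (log2 fold change 0.96 ± 0.16 (SE), adjusted p = 0.00031). The coding sequences of Tgtp1 and Tgtp2 are 99.7% identical over 1245 bases, so reads can be shared between them and their separate levels are uncertain. Tgtp1 was measured over 599 bases (503 of them non-coding exon) within chr11:48985871-48987555, and Tgtp2 over 692 bases (412 of them coding) within chr11:49057194-49059112 (mm10).

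Irgm2, an immunity-related GTPase of the M family that regulates other GTPases of its kind, was measured over 163 bases of non-coding exon at chr11:58215008-58215170. It stood at 159, 103, 125, 139.5 and 121 CPM with ABX and at 62.9, 68.4, 51.6, 67.6 and 66.2 CPM without. All 5 ABX mice were above 100 CPM and all 5 others were below 70 CPM (log2 fold change 1.03 ± 0.16 (SE), adjusted p = 0.00028). Ifih1, a sensor of viral RNA, and Rtp4, an interferon-induced transporter protein gene, had log2 fold changes of 0.30 and 0.21 and were not called.

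Further genes outside the list moved in the same direction. F830016B08Rik on chromosome 18 had the largest rise among called genes with a mean of at least 1 CPM; Rcor2 (1.69), Chic1 (1.61) and the transporter gene Slc22a27 (1.31) also rose by more than 1 on the log2 scale, from levels under 5 CPM. The Rcor2 call was lost without mouse 14, 17, 18 or 20, and Slc22a27 was 0.56 with plate column in the model. F830016B08Rik was at 469, 204, 296, 356 and 288 CPM with ABX and at 65.5, 144, 60.5, 73.3 and 97.9 CPM without, so that the lowest ABX mouse stood above the highest mouse without ABX (log2 fold change 1.86 ± 0.24 (SE), adjusted p = 7.5e-05). Gm12185 was at 51.9, 27.9, 29.4, 34.8 and 31.8 CPM with ABX and at 11.4, 17.5, 8.74, 11.6 and 17 CPM without (log2 fold change 1.40 ± 0.25 (SE), adjusted p = 0.00078). Gm5431, which lies beside it and was also picked after its values were seen, had a log2 fold change of 0.86 ± 0.15 (SE), adjusted p = 0.0005. Its promoter window held neither motif. In control mice without anti-CD40 the mean of Tgtp2 was 6.19 CPM with ABX and 5.5 CPM without, and that of Gm12185 was 0.473 and 0.468 CPM. The control means of F830016B08Rik were 31.8 and 34.5 CPM. All 3 were lower there than in either anti-CD40 group. Slc22a27 was the other way, with control means of 6.33 and 6.61 CPM against 1.47 and 0.586 CPM with anti-CD40. Chic1 had control means of 7.03 and 3.78 CPM, against 3.7 and 1.15 CPM with anti-CD40.

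Among genes of microbial sensing, 1 of 7 tested rose and 2 fell, where 8.68% of all genes tested rose and 7.23% fell. Ripk2 encodes the kinase that relays signals from the bacterial peptidoglycan sensors Nod1 and Nod2. It was at 232, 167, 168, 211 and 220.3 CPM in the ABX mice and at 92.4, 49.2, 76.7, 75.8 and 46 CPM in the others, measured at chr4:16163224-16163537. Every ABX mouse exceeded every mouse without ABX (log2 fold change 1.56 ± 0.15 (SE), adjusted p = 1.1e-06). Nod1 itself had a log2 fold change of 0.29 and was not called (adjusted p = 0.199). Nlrp3, the sensor protein of an inflammasome that matures interleukin-1 beta, was at 7.75, 10.7, 10.1, 4.77 and 6.64 CPM with ABX and at 14.5, 23.4, 29.4, 10.1 and 10.2 CPM without. The ranges overlapped, since mice 19 and 20 lay at the level of the upper ABX mice, and mice 17 and 18 were the highest. Its fall (log2 fold change -1.14 ± 0.32 (SE), adjusted p = 0.019) was not called without mouse 14 or without mouse 18. Il1r1, the receptor of interleukin-1, was at 345, 374, 578, 328 and 479 CPM with ABX and at 603, 705, 475, 677 and 785 CPM without, and mouse 18 lay below ABX mice 13 and 15. Its log2 fold change was -0.63 ± 0.19 (SE), adjusted p = 0.0276, and the call was lost when any of mice 11, 12, 14, 17, 19 or 20 was left out.

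Among cytokine, chemokine and receptor genes, 3 of 7 tested fell and none rose, with a median log2 fold change of -0.63. Csf2rb, the shared receptor chain for interleukin-3, interleukin-5 and granulocyte-macrophage colony-stimulating factor, was at 24.3, 27.2, 20.3, 16.2 and 14.5 CPM with ABX and at 45.5, 62.1, 73.9, 41.1 and 28.4 CPM without. The highest ABX mouse, mouse 12, was just below the lowest mouse without ABX, mouse 20 (log2 fold change -1.30 ± 0.28 (SE), adjusted p = 0.00417). The chemokine Ccl3 was at 1.98, 3.06, 4.4, 2.16 and 1.7 CPM with ABX and at 4.95, 9.6, 26.1, 1.86 and 3.15 CPM without. Its groups overlapped and mouse 18 alone was above 20 CPM. The log2 fold change of Ccl3 was -1.77 ± 0.52 (SE), adjusted p = 0.0268. Without mouse 18 it was -0.88 and not called, and the call was also lost without mouse 11, 14 or 15. With plate column in the model it was -0.89. The third was Il1r1. The alarmin Il33 (-1.15, adjusted p = 0.188) and the eosinophil chemokine Ccl24 (0.71, adjusted p = 0.117) were not called.

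Genes of CD40, tumour necrosis factor receptor and NF-kB signalling were not called in any of 8 tested, where 15.9% of all genes tested were called. Their log2 fold changes ran from -0.17 (Nfkbiz, an inducible cofactor) to 0.32 (Nfkbie, an inhibitor). None of 3 antigen presentation genes tested was called, among them H2-Aa, a chain of MHC class II (0.20). Of 7 cell death genes, 1 was called, which is near the 15.9% of all genes. This was the death receptor Fas, higher with ABX and overlapping between groups (log2 fold change 0.31 ± 0.10 (SE), adjusted p = 0.0389). Its call was lost without mouse 11, 12, 17 or 20, and its value was 0.18 with plate column in the model. Ripk3, the kinase of necroptosis, was -0.53 and not called. Cd40, Ifng, Tnf, Il6, Saa1 and Cyp7a1 were not measured.

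Polyamine catabolism held the largest fall. Smox encodes spermine oxidase and Sat1 the spermidine and spermine acetyltransferase, which are the enzymes that break down polyamines. Both of the 2 polyamine genes tested fell. Smox was at 22.5, 29.1, 31.7, 21.9 and 23.5 CPM with ABX and at 87.3, 214, 286, 66.3 and 76.1 CPM without, measured over 1744 bases of exon. The ABX mice lay close together and mice 17 and 18 were far above the other mice without ABX, yet the lowest of those still exceeded every ABX mouse. The log2 fold change of Smox was -2.50 ± 0.35 (SE), adjusted p = 0.00017. Sat1 was at 112, 129, 126, 91 and 102 CPM with ABX and at 200.1, 248, 348, 191 and 268 CPM without, also with no overlap (log2 fold change -1.16 ± 0.13 (SE), adjusted p = 4.8e-06). In control mice the group means of Sat1 were 98.4 CPM with ABX and 95.4 CPM without, and those of Smox were 14.1 and 17.1 CPM.

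**Figure D2:**
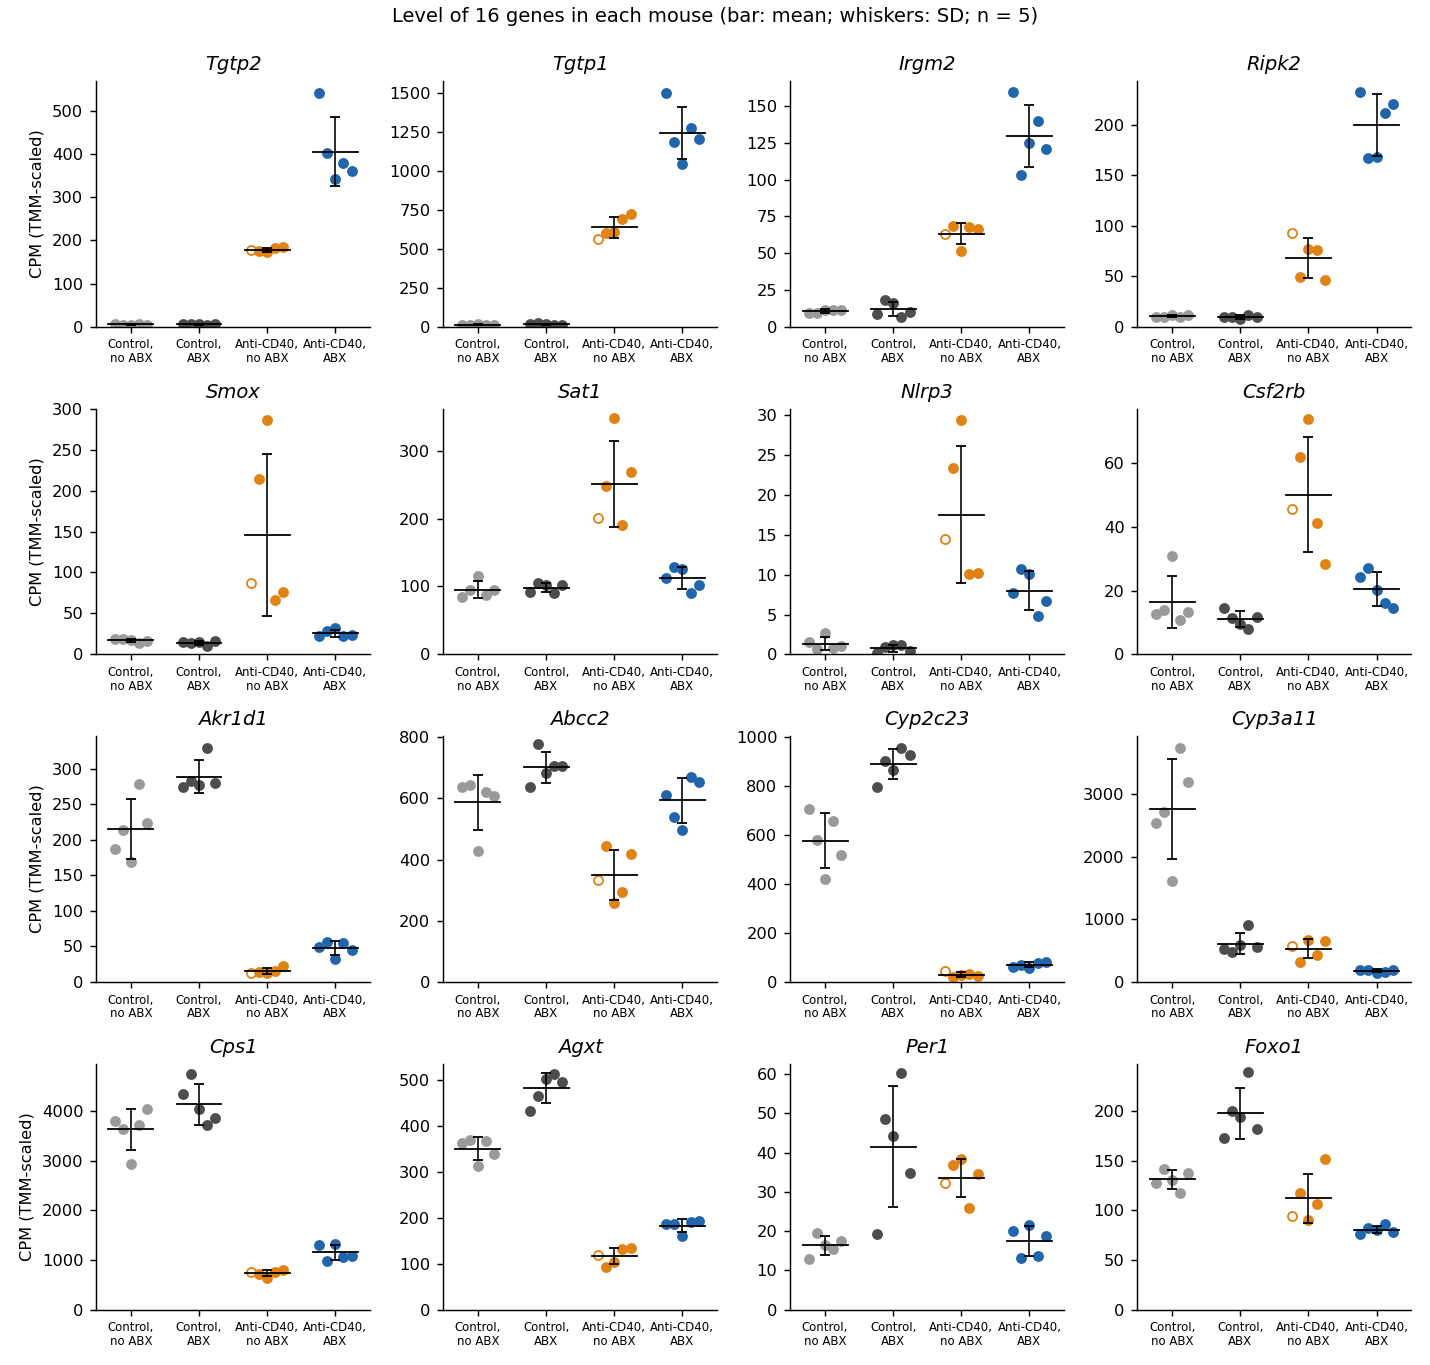
Each panel plots 1 of 16 genes in CPM (vertical axis, from 0) for each mouse in 4 groups of 5, with bars at the mean and whiskers of 1 SD; the open circle is mouse 16, the mouse without ABX in plate column 4. For Tgtp2, Tgtp1, Irgm2, Ripk2, Smox, Sat1, Csf2rb, Akr1d1, Abcc2, Cyp2c23, Cyp3a11, Cps1, Agxt, Per1 and Foxo1 the 2 anti-CD40 groups do not overlap, and for Nlrp3 they do.

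Of 4 acute phase and complement genes tested, 2 fell and none rose. Serpina3i, a protease inhibitor of the antichymotrypsin family, was at 61.1, 68.2, 68.6, 44.2 and 55.7 CPM with ABX and at 106, 104, 106, 128 and 121 CPM without. All 5 ABX mice were below 70 CPM and all 5 others were above 100 CPM (log2 fold change -0.92 ± 0.15 (SE), adjusted p = 0.0003). A2m, the broad protease inhibitor alpha-2-macroglobulin, was at 5.23, 1.87, 8.64, 2.46 and 1.08 CPM with ABX and at 8.41, 30.1, 21.4, 25.2 and 6.46 CPM without. The ranges met, because mouse 13 was above mice 16 and 20 (log2 fold change -2.25 ± 0.52 (SE), adjusted p = 0.00607), and with plate column in the model the value was -1.13. Ceruloplasmin, Cp, the copper carrier of plasma, was not called (-0.19, adjusted p = 0.339). Haptoglobin, a main acute phase protein, shares its counted interval with 3 other genes. That interval took 17.6 ± 0.592% of all counts with ABX and 18.7 ± 1.39% without (SD, n = 5), and was not tested.

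Other large falls were in genes of varied function. Rps6ka2, a ribosomal S6 kinase, was at 1.62, 1.87, 1.57, 0.462 and 0.926 CPM with ABX and at 5.44, 11.5, 11.7, 1.86 and 2.84 CPM without. Mice 17 and 18 were the highest, and mouse 19 fell among the upper ABX mice (log2 fold change -2.38 ± 0.42 (SE), adjusted p = 0.0005). Coq8b, a kinase-like protein of coenzyme Q synthesis picked after its values were seen, was at 33.3, 35.7, 42.9, 25.6 and 44 CPM with ABX and at 79.5, 86.7, 107, 80.4 and 98.2 CPM without. It had a wide gap between groups (log2 fold change -1.31 ± 0.13 (SE), adjusted p = 5.8e-07). The remaining genes among the 10 largest falls were Tmem154 (-2.20), Crispld2 (-2.09), the noncoding RNA Mirt1 (-1.96), Adamtsl2 (-1.90), the muscle and wound response gene Ankrd1 (-1.90) and Il20rb, a receptor chain for interleukin-20 (-1.90). Ankrd1 was not called without mouse 18 and was -1.09 with plate column in the model.

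Drug-metabolising enzymes of phase I, mostly cytochromes P450 of hepatocytes, rose in 8 of 22 tested and fell in 1. Their median log2 fold change was 0.29. Aldh1a1, a retinaldehyde dehydrogenase, was at 670.3, 802, 618, 876 and 813 CPM with ABX and at 430.1, 366, 395, 443 and 475 CPM without, with no overlap (log2 fold change 0.84 ± 0.12 (SE), adjusted p = 7.5e-05). Cyp4f14, a fatty acid omega-hydroxylase, was at 65.8, 73.1, 53.3, 68.5 and 94.5 CPM with ABX and at 36.6, 21.3, 35.6, 30.3 and 39.4 CPM without, also with no overlap (log2 fold change 1.13 ± 0.16 (SE), adjusted p = 9e-05). Ces1e, a carboxylesterase, had a log2 fold change of 0.98 (adjusted p = 0.0184). In control mice 5 of the 22 genes were called higher with ABX and 4 lower. Cyp4f14 was among the higher ones (log2 fold change 0.61, adjusted p = 0.0158), and its difference was not called.

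Members of the Cyp2c family, which oxidise drugs, steroids and arachidonic acid, were higher in several cases. Cyp2c23 was at 62.7, 70.7, 56.9, 75.9 and 83.3 CPM with ABX and at 46.4, 19.6, 29.2, 32.5 and 24 CPM without. The groups did not overlap and mouse 16 was the highest without ABX (log2 fold change 1.21 ± 0.18 (SE), adjusted p = 0.00015). Cyp2c68 had a log2 fold change of 1.20 ± 0.18 (SE), adjusted p = 0.00017, and Cyp2c50 one of 0.70 ± 0.11 (SE), adjusted p = 0.00016. These 3 genes were called higher with ABX in control mice as well (Cyp2c23 0.62, Cyp2c68 0.69 and Cyp2c50 0.72), and their differences were not called. Cyp2c29 was not called in controls (0.03). The control means of Cyp2c23 were 888.5 CPM with ABX and 576 CPM without, above both anti-CD40 groups (69.9 and 30.3 CPM). Cyp2c29 overlapped between groups, with mouse 13 low among ABX mice and mouse 16 the highest without ABX, and its call (log2 fold change 0.72 ± 0.20 (SE), adjusted p = 0.0201) was lost without mouse 15 or 17. Cyp2c69 was called at under 2 CPM in every anti-CD40 mouse, while its control means were 18.1 CPM with ABX and 8.82 CPM without. Its call was lost when any of 8 mice was left out. Of the called genes named here, Cyp2c69, Adamtsl2, Rcor2 and Slc22a27 passed the filter on low counts only with the control libraries included. With plate column in the model, Cyp2c23 was 0.59, Cyp2c68 0.74, Cyp2c29 0.11 and Cyp2c69 0.90. Cyp2c genes are similar in sequence, so that reads can be shared among them. Cyp2c38 (0.53), Cyp2c67 (0.12) and Cyp2c39 (-0.45) were not called.

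Cyp3a11, the main mouse P450 of the Cyp3a family and a target of bile acid and drug sensing by the nuclear receptor PXR, moved the other way. It was picked after its values were seen. It was at 193, 189, 141, 167 and 194 CPM with ABX and at 576, 314, 667, 433 and 660.2 CPM without, measured over 163 coding bases at chr5:145858721-145858883. All ABX mice were below 200 CPM and all others above 300 CPM (log2 fold change -1.58 ± 0.23 (SE), adjusted p = 0.00023). It was 1 of the 5 genes called with plate column in the model, where the value was -1.70 and rested on mouse 16 alone without ABX. In the fit within column 4, with mouse 16 as the only mouse without ABX, Cyp3a11 was not called. Cyp3a11 fell with ABX in control mice as well (log2 fold change -2.17, adjusted p = 6.1e-05). The difference between the effects, 0.59 ± 0.32 (SE), adjusted p = 0.285, was not called. Its order of levels was the control mean without ABX, 2763 CPM, then 614 CPM in control ABX mice, then the anti-CD40 means of 530.0 CPM without ABX and 177 CPM with ABX. Cyp3a59, a close relative, was 0.02 with anti-CD40 and not called. In controls it fell with ABX (-0.84, adjusted p = 0.00174), and its difference was called (0.86 ± 0.23 (SE), adjusted p = 0.0249).

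Conjugation and transport genes rose in 5 of 9 tested and fell in 1, with a median log2 fold change of 0.52. Abcc2, the canalicular pump that exports conjugated bilirubin and drugs into bile, was at 610.5, 538, 498, 669 and 653 CPM with ABX and at 333, 445, 258, 294 and 420.0 CPM without. The lowest ABX mouse, mouse 13, was above the highest mouse without ABX, mouse 17 (log2 fold change 0.76 ± 0.13 (SE), adjusted p = 0.00048). Hnmt, a methyltransferase that inactivates histamine, rose without overlap (0.79 ± 0.17 (SE), adjusted p = 0.00279). So did the organic anion transporter gene Slc22a30 (0.90 ± 0.19 (SE), adjusted p = 0.00279). Abcc6 rose by 0.42 (adjusted p = 0.0062). Slc22a28 was called at 1.27, a call lost when any of 8 mice was left out. Gstp2, a glutathione transferase with a near copy, was the only one lower (-0.32, adjusted p = 0.0268).

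Of 5 bile acid genes tested, 2 rose, Akr1d1 and the pump gene Abcc2, and 3 were not called. Akr1d1 encodes the 5-beta-reductase that completes the sterol ring change of bile acid synthesis. It was at 49.2, 55.9, 32.2, 54.5 and 45.4 CPM with ABX and at 13.2, 13.6, 12.5, 15.9 and 22.7 CPM without, measured over 1100 bases of non-coding exon at chr6:37567716-37568815. Every ABX mouse was above 30 CPM and every other mouse below 25 CPM (log2 fold change 1.61 ± 0.17 (SE), adjusted p = 2.7e-06). With plate column in the model Akr1d1 was still called, at 1.84. Its control means were 289 CPM with ABX and 215 CPM without, so both anti-CD40 groups were below both control groups. Fgfr4, the receptor for the gut hormone that restrains bile acid synthesis (-0.22), Baat, which conjugates bile acids (0.13), and Scp2 (0.08) were not called.

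In amino acid and urea metabolism, 4 of 13 genes tested rose and 2 fell, where 8.68% of all genes tested rose and 7.23% fell. Cps1, the first enzyme of the urea cycle, was at 1307, 973, 1324, 1069 and 1086 CPM with ABX and at 760.4, 724, 642, 751 and 808 CPM without. Agxt, which removes glyoxylate in peroxisomes, was at 186, 187, 159.9, 191 and 193 CPM with ABX and at 119, 93.3, 104, 133 and 135 CPM without. Neither gene overlapped between groups, and their log2 fold changes were 0.64 ± 0.10 (SE), adjusted p = 0.00021, and 0.65 ± 0.09 (SE), adjusted p = 7.5e-05. Kynu of tryptophan breakdown (0.46 ± 0.08 (SE), adjusted p = 0.00045) and Uroc1 of histidine breakdown (0.40 ± 0.09 (SE), adjusted p = 0.00536) rose as well, and Uroc1 was 0.20 with plate column in the model. The cystine transporter Slc7a11 (-1.37) and the ornithine carrier Slc25a15 (-0.28) fell. The Slc7a11 call was lost when any of mice 11, 13, 14, 15, 16, 17 or 18 was left out.

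In glucose metabolism, 3 of 11 genes tested fell and none rose, where 7.23% of all genes tested fell and 8.68% rose. Foxo1, the transcription factor that drives gluconeogenesis, was at 75.9, 82.1, 80.1, 85.9 and 78.7 CPM with ABX and at 94, 118, 90.5, 106 and 151 CPM without, with no overlap (log2 fold change -0.48 ± 0.11 (SE), adjusted p = 0.00479), and was -0.22 with plate column in the model. Pcx, pyruvate carboxylase, fell by 0.47 on the log2 scale, and G6pdx, which opens the pentose phosphate pathway, fell by 0.75. Among 7 genes of oxidative stress and metal handling, 3 fell, namely G6pdx, Slc7a11 and Ncf1, a subunit of the phagocyte oxidase (-0.63). Keap1, the inhibitor of NRF2, rose by 0.29. The call of Ncf1 was lost without mouse 13, 14, 15, 17 or 18, and that of Keap1 without mouse 11, 14, 18 or 19.

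None of 9 lipid synthesis and lipoprotein genes tested was called, where 15.9% of all genes tested were. Apob, the protein of very low density lipoprotein, had a log2 fold change of 0.18, and Scd1, a fatty acid desaturase, one of 0.18. Of 5 genes of fatty acid oxidation, Ehhadh, a peroxisomal enzyme, was called at 0.53, and the call was lost when any of 8 mice was left out. No cholesterol synthesis gene was tested. Among 16 hepatocyte transcription factor and identity genes, Alb and the nuclear receptor partner Rxra (0.47) rose and Sox9 fell. The Rxra call was lost without mouse 11, 13, 17 or 18. Albumin took 8.88 ± 0.806% of all counts with ABX and 6.75 ± 0.597% without (SD, n = 5). The groups did not overlap, and the exact 2-sided permutation p of 0.00794 is the smallest that 5 against 5 mice can give. On the scaled CPM, where Alb of mouse 13 (69454 CPM) lay just below that of mouse 16 (70566 CPM), the log2 fold change was 0.41 ± 0.13 (SE), adjusted p = 0.0292. The Alb call disappeared when mouse 11, 12, 17 or 18 was left out, and the value was 0.20 with plate column in the model. Of 10 coagulation factor and serpin genes, none other than Alb was called.

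Clock and glucocorticoid target genes fell in 3 of 6 tested, and no tested member had a log2 fold change above 0. Per1, a period gene of the clock that also answers to glucocorticoids, was at 20, 13.3, 21.7, 13.6 and 18.8 CPM with ABX and at 32.3, 36.9, 38.3, 25.8 and 34.7 CPM without. The highest ABX mouse was below the lowest of the others (log2 fold change -0.94 ± 0.22 (SE), adjusted p = 0.00586). Bhlhe40, a clock repressor (-0.69 ± 0.18 (SE), adjusted p = 0.0143), and Fkbp5, a chaperone induced by glucocorticoids (-0.53 ± 0.15 (SE), adjusted p = 0.019), fell without overlap. The call of Fkbp5 was lost without mouse 14. Rora (-0.19), Lpin1 (-0.09) and Klf9 (-0.02) were not called. The times at which the mice were killed are not stated in the sources used.

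**Figure D3:**
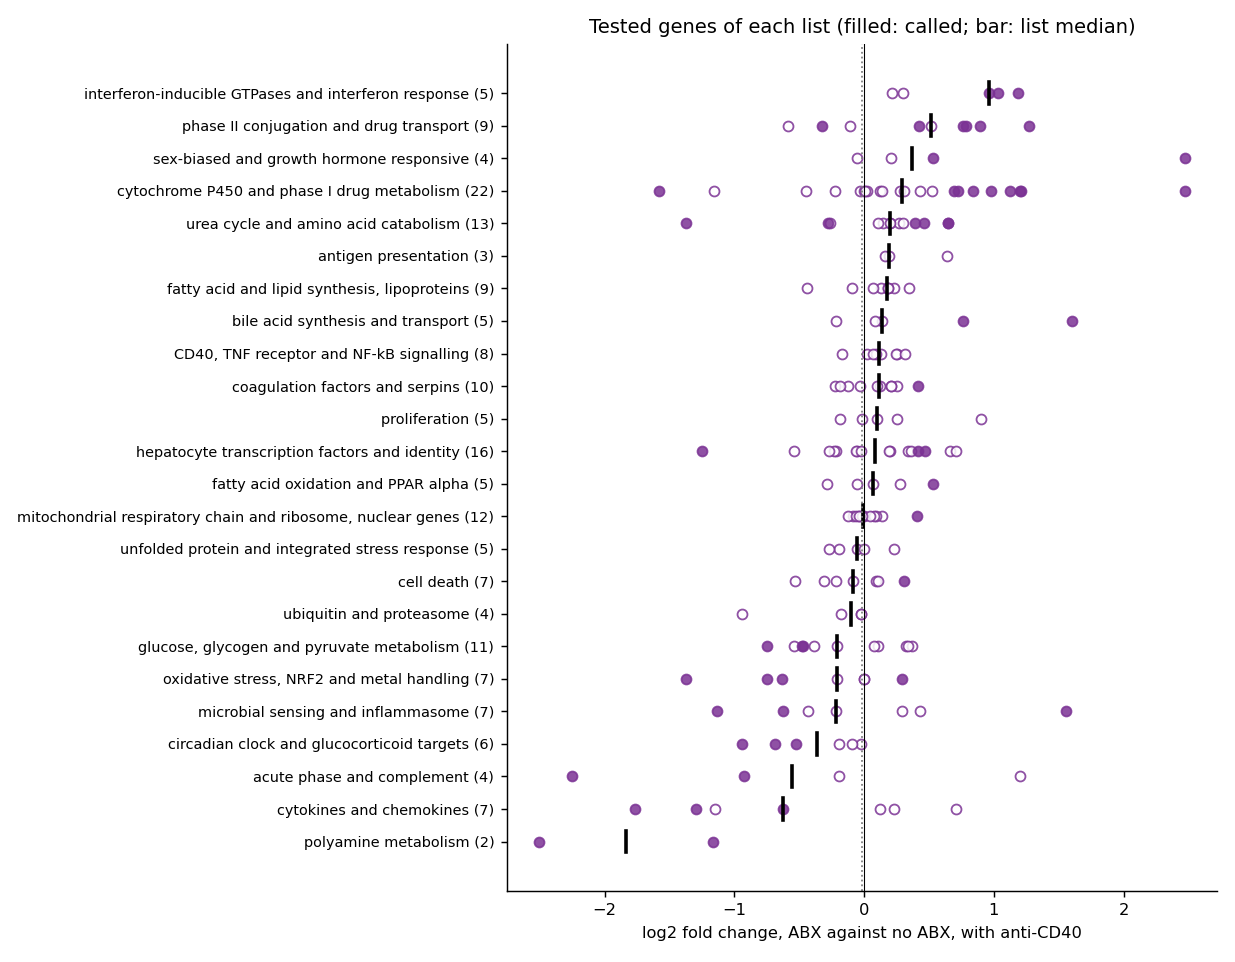
Each circle is a tested gene of the list named on the left (number tested in brackets), at its log2 fold change of ABX over no ABX with anti-CD40, and a filled circle is a called gene. Black bars are list medians, from -1.83 for the 2 polyamine genes to 0.96 for the 5 interferon genes, and the dotted line is the median of all genes, -0.01.

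Several groups had few or no calls, beside a share of 15.9% called over all 2200 genes. In lists this short, the lack of a call does not show a lack of change. None of 5 unfolded protein response genes, 4 ubiquitin and proteasome genes or 5 proliferation genes was called, although Kif11, a mitotic motor, had a log2 fold change of 0.90 (adjusted p = 0.0905). Of 12 nuclear genes for mitochondrial proteins, only Suclg2, a subunit of succinyl-CoA ligase, was called (0.41 ± 0.09 (SE), adjusted p = 0.00248). Of 4 sex-biased genes, Susd4 (0.53) and Cyp2c69 were called, and the Susd4 call was lost without mouse 11, 14 or 16. The mitochondrial share of all counts was 23.3 ± 1.86% with ABX and 24.8 ± 0.795% without (SD, n = 5; exact 2-sided permutation p = 0.167).

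Markers of other cells in the liver differed between the groups in part. In bulk tissue, fewer cells of a type and less RNA per cell cannot be told apart. Cd177, a surface protein of neutrophils, was at 2.52, 3.23, 2.98, 2.77 and 1.85 CPM with ABX and at 9.24, 9.73, 32.8, 10.1 and 4.41 CPM without. The groups did not overlap and mouse 18 was far above the rest (log2 fold change -2.30 ± 0.42 (SE), adjusted p = 0.00078). Padi4, the other neutrophil gene tested, had a log2 fold change of -1.36 ± 0.51 (SE), adjusted p = 0.0714. The summed level of both was 2.62 to 4.76 CPM with ABX and 5.36 to 37.8 CPM without. Marco, a scavenger receptor of Kupffer cells, was at 22.9, 33, 28.7, 23.6 and 28.9 CPM with ABX and at 54.1, 39.1, 133, 64.3 and 38.5 CPM without. These groups did not overlap either, but the change was not called (-1.26 ± 0.56 (SE), adjusted p = 0.15). None of 7 monocyte and macrophage genes was called, and 6 of the 7 had log2 fold changes below 0, from -2.06 (F13a1) to -0.12 (Adgre1).

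Stellate cell and matrix genes were not called in any of 10 tested, but all 10 had log2 fold changes below 0, with a median of -0.78. Col3a1, a fibrillar collagen, was at 49, 49.8, 11, 6.31 and 6.02 CPM with ABX and at 76.4, 81.6, 125, 17 and 26 CPM without. Mice 13, 14, 15, 19 and 20 were low and the other 5 were high, so that the spread inside each group was as large as the difference. The summed level of the 10 genes was 99.6 to 290 CPM with ABX and 139 to 469 CPM without. Among 9 endothelial genes, Stab1, a scavenger receptor of sinusoidal endothelium, was the only one called (-0.89 ± 0.26 (SE), adjusted p = 0.0247). Its call was lost without mouse 13, 14, 15, 16, 17 or 18, and it was -1.43 with plate column in the model. Pecam1, a junction protein of endothelium, was at 52.8, 53.5, 35.2, 7.7 and 7.41 CPM with ABX and at 76.9, 61.8, 69.1, 15.3 and 15.4 CPM without (log2 fold change -0.62, not called). The 9 summed to 38.0 to 127 CPM with ABX and 48.1 to 147 CPM without.

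Sox9, a transcription factor of bile duct cells and of reacting hepatocytes, was at 6.85, 7.31, 8.48, 8.32 and 7.56 CPM with ABX and at 17, 12.4, 16.7, 25.2 and 20.6 CPM without. There was no overlap (log2 fold change -1.25 ± 0.22 (SE), adjusted p = 0.00048). Pkhd1, the other cholangiocyte gene tested, was 0.35 and not called. T cell genes (3 tested), the B cell gene Cd79b (0.57), the plasma cell genes Ighm (0.37) and Xbp1 (-0.27), the erythroid gene Slc4a1, the platelet gene Itga2b (-0.21) and the adipose gene Cfd were not called. The T cell marker Cd6 was at 0 in all libraries. No natural killer, dendritic, pancreatic or muscle marker had enough counts to be tested. Beside the falls of Nlrp3, Csf2rb, Ccl3 and Ncf1, 1 of 2 neutrophil genes, 1 of 9 endothelial genes and none of 10 matrix genes were called lower. The endothelial list had a median log2 fold change of 0.08, with 5 of the 9 above 0. The part of other cell types in those falls was not tested.

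**Figure D4:**
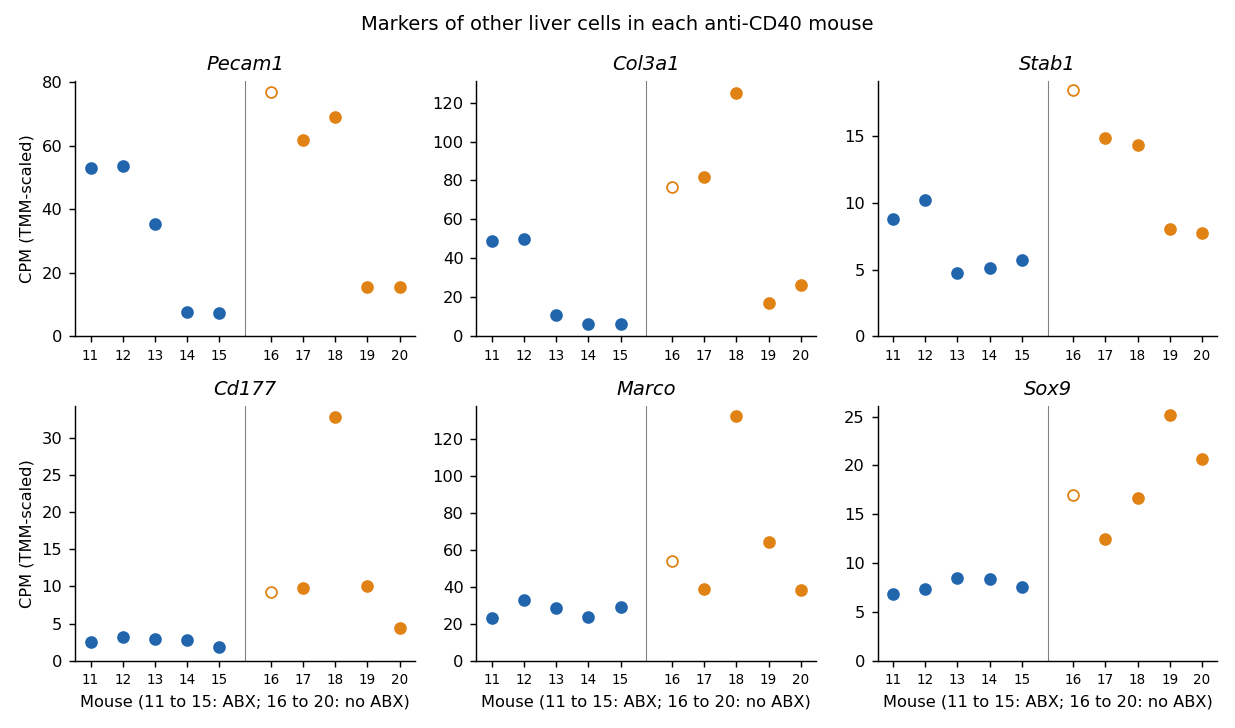
Each point is the level (CPM, from 0) of a marker gene in 1 anti-CD40 mouse, with ABX mice 11 to 15 in blue and mice 16 to 20 without ABX in orange; the open circle is mouse 16 of plate column 4. Pecam1 is low in mice 14, 15, 19 and 20, Col3a1 is low in these and in mouse 13, Cd177 and Marco are highest in mouse 18, and Sox9 separates the groups.

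The ABX effect with anti-CD40 was then set against that in control mice, which asks whether the effect differed without anti-CD40. Control ABX mice 1 to 5 and control mice 6 to 8 without ABX lay in plate column 3, and control mice 9 and 10 in column 4. Control and anti-CD40 mice thus lay mostly in different columns, and a difference between columns cannot be told apart from one of treatment. What a plate column stands for is not given in the sources used. In controls 147 of 2200 genes (6.68%) were called, 76 higher and 71 lower. Of the 350 genes called with anti-CD40, 33 were called in the same direction in controls (9.43% of the 350 and 22.4% of the 147), 8 in the other direction and 309 were not called there. The difference between the 2 effects was itself called for 166 genes (7.55%), 96 of them positive and 70 negative. Without mouse 14 there were 88 such calls, without mouse 18 94, without control mouse 10, 4 or 5 there were 104, 109 and 110, and without mice 14, 15, 19 and 20 there were 79. Of the 166, 109 were called with anti-CD40, 33 in controls only and 24 in neither. Scaling by library totals in place of the trimmed mean moved the median difference of all genes from -0.01 to 0.10 and gave 137 calls, 80.3% of them positive against 57.8%.

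The difference was called for 1 of 5 interferon genes, 1 of 7 sensing genes and both of the 2 polyamine genes. The ABX effect on Ripk2 was 1.56 with anti-CD40 and -0.12 in controls (difference 1.68 ± 0.25 (SE), adjusted p = 0.00067). For Tgtp2 the effects were 1.18 and 0.16 (difference 1.02 ± 0.20 (SE), adjusted p = 0.00348). For F830016B08Rik they were 1.86 and -0.12 (difference 1.99 ± 0.35 (SE), adjusted p = 0.00279). All 3 rose with anti-CD40 and were not called in controls. Sat1 had effects of -1.16 and 0.05 (difference -1.21 ± 0.19 (SE), adjusted p = 0.00067), Smox of -2.50 and -0.28 (difference -2.22 ± 0.51 (SE), adjusted p = 0.0153), and Coq8b of -1.31 and -0.11 (difference -1.20 ± 0.20 (SE), adjusted p = 0.00082). These 3 fell with anti-CD40 and were not called in controls. For Irgm2 and Tgtp1 the differences, 0.84 and 0.69, missed the threshold (adjusted p = 0.0547 and 0.0978).

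A few genes were called in opposite directions. Per1 fell with ABX under anti-CD40 (-0.94) and rose with ABX in controls (1.34, adjusted p = 0.00174), with a difference of -2.28 ± 0.31 (SE), adjusted p = 0.0005. Foxo1 likewise fell with anti-CD40 (-0.48) and rose in controls (0.59, adjusted p = 0.00229; difference -1.07 ± 0.16 (SE), adjusted p = 0.0005). Fas was 0.31 with anti-CD40 and -0.41 in controls (difference 0.72 ± 0.16 (SE), adjusted p = 0.00962). Among metabolic genes, the log2 fold change was larger with anti-CD40 for Akr1d1 (1.61 against 0.43, difference 1.18 ± 0.22 (SE), adjusted p = 0.00376). In CPM the means of Akr1d1 were 47.4 with ABX and 15.6 without under anti-CD40, and 288.6 and 214.7 in controls. Aldh1a1 rose with anti-CD40 and was not called in controls (0.84 against -0.11, difference 0.95 ± 0.17 (SE), adjusted p = 0.00195). By contrast Cyp2c50 rose by 0.70 with anti-CD40 and by 0.72 in controls, and the difference was -0.02 ± 0.15 (SE), adjusted p = 0.952. Agxt rose in both settings (0.65 and 0.46), and Fkbp5 fell in both (-0.53 and -0.53). With plate column in the model the difference was called for none of 2200 genes by edgeR, with 282 at an unadjusted p under 0.05.

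**Figure D5:**
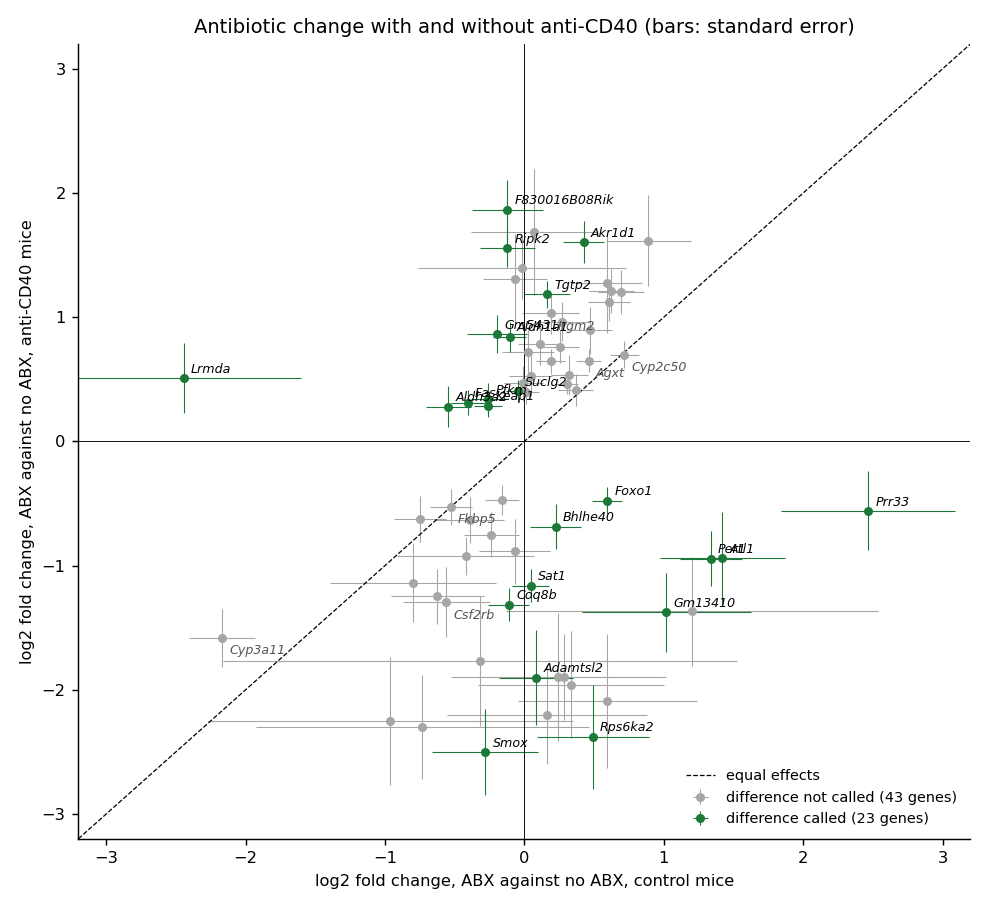
Each point is a named gene, with its log2 fold change of ABX over no ABX in control mice on the horizontal axis and in anti-CD40 mice on the vertical axis; bars are standard errors and the dashed line marks equal effects. Green points are the 23 genes whose difference was called, such as Ripk2 and Sat1 near 0 on the horizontal axis. Grey points are the other 43 genes drawn, such as Cyp3a11, which lies low on both axes. Cyp2c69, also called with anti-CD40, is not drawn.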

How the data were processed

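Liver RNA from 20 individual mice was sequenced, with 1 deposited file of raw counts for every library. Per the submitters' processing notes, Trimmomatic 0.38 and HISAT2 2.1.0 were used and mm10 is the build named. Per the file headers, the authors' counts are from featureCounts 1.5.0-p2, run on read pairs for exons summed by gene and without strand, so a gene and an antisense partner cannot be told apart. The annotation in those headers is human (Ensembl 93, GRCh38), so the deposited identifiers carry no mouse gene meaning. Intervals were read as mm10 with bedtools 2.31.1, and rows overlapping exons of exactly 1 GENCODE M21 gene by at least 50 bases were summed per gene. Of all counts, 52.34% lay over several genes and were left out. The part left out was not alike across the groups. Outside mitochondrial features it was 39.5 ± 1.09% of counts with ABX and 41.1 ± 0.492% without in anti-CD40 mice (SD, n = 5; exact 2-sided permutation p = 0.0159). In control mice it ran from 17.4% (mouse 4) to 26.6% (mouse 8). Attribution left 5552 genes, 4217 with counts and 2200 passing edgeR's filter on low counts.

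The 4 groups were fitted together with edgeR 4.0.16 (TMM scaling, quasi-likelihood test, Benjamini-Hochberg adjustment, adjusted p under 0.05). Shares of counts were compared by exact 2-sided permutation of the 10 mice. The code was tested on simulated data. Alternatives were library totals, DESeq2 1.42.0 and its size factors, other filters on low counts, overlaps of 1 and 200 bases, mitochondrial features left out, plate column, and mice left out. Leaving out mice 14, 15, 19 and 20, or single control mice, was chosen after seeing the data. Named genes were the 10 largest called changes in each direction whose mean reached 1 CPM, the 4 smallest p-values at most in every list, and the 5 largest differences of the ABX effects; genes outside this rule are marked as picked, or are given as further members of a list. The comparison and the 25 gene lists were chosen with earlier results of these data known. Some genes are not reported here; they stayed in the fit and were left out of the counts for lists and named genes. No library pair held identical values.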

Additional observations from a re-analysis of the deposited data

Results flagged for a closer look

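Within a group of 5 mice, a single level stood far from the others in 6 of 268 groups examined; chance flags about 1 group in 20. Among ABX mice, Agxt was low in mouse 13 (160.0 CPM), Cfd was high in mouse 15 (7.1 CPM) and Gm12185 was high in mouse 11 (51.9 CPM). Among mice without ABX, Canx, a chaperone of the endoplasmic reticulum, was low in mouse 17 (399 CPM), and Cd177 (32.8 CPM) and Marco (133 CPM) were high in mouse 18. Mouse 18 supplied both of the high myeloid values.

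For 23 of the genes named by the rule or picked, the ABX effect with anti-CD40 differed from that in controls by edgeR's test of the difference. The difference (log2 fold change with anti-CD40 minus that in controls) was positive for F830016B08Rik (1.99), Ripk2 (1.68), Akr1d1 (1.18), Gm5431 (1.06), Tgtp2 (1.02), Aldh1a1 (0.95), Aldh3a2 (0.82), Fas (0.72), Pfkm (0.60), Keap1 (0.55), Suclg2 (0.45) and Lrmda (2.95). It was negative for Smox (-2.22), Sat1 (-1.21), Coq8b (-1.20), Per1 (-2.28), Foxo1 (-1.07), Bhlhe40 (-0.91), Rps6ka2 (-2.87), Adamtsl2 (-1.99), Atl1 (-2.36), Gm13410 (-2.39) and Prr33 (-3.03). Atl1, Lrmda and Prr33 were at under 5 CPM in all 10 anti-CD40 mice, and Adamtsl2 had means of 1.05 CPM with ABX and 3.97 CPM without. Atl1 and Adamtsl2 passed the filter on low counts only with the control libraries included. The differences of Aldh3a2, Bhlhe40, Gm13410, Lrmda, Pfkm and Suclg2 each lost the call when single mice were left out, and the other 17 remained called whichever of the 20 mice was left out. None of the 23 was called with plate column in the model.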

How the results depend on the processing

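No paired analysis was possible because no mouse number is shared between groups. Plate column and ABX almost coincided: the 350 calls became 5 with plate column as a term and 6 within column 4, where mouse 16 was alone without ABX and was assumed to vary like the other mice, and the 166 differences became 0 (282 at an unadjusted p under 0.05). Leaving out each anti-CD40 mouse gave 225 to 364 calls, and leaving out any of the 20 mice gave 88 to 194 differences. Without mice 14, 15, 19 and 20 there were 170 calls and 79 differences. The mitochondrial share differed by -1.48 percentage points, and by -0.873 to -2.12 with 1 mouse left out, which passed 0.05 only without mouse 11 (exact permutation p = 0.0238). Under the other settings the 350 calls lay between 246 and 383 and the 166 differences between 122 and 201, both within 1.5 times. Of 62 named called genes, library totals lost 4 calls and no filter on low counts lost 11, and no called gene reversed. Genes called under neither setting were given no direction. The causes were not tested, and the short stretch measured per gene limits the depth.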
